A study of Arabidopsis thaliana with 4 samples.

Results

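The NADPH oxidase (RBOH, respiratory burst oxidase homologue) family of Arabidopsis thaliana was described in the microarray experiment on the Al (aluminum) response. Its members were taken by locus: AT5G07390 (RBOHA), AT1G09090 (RBOHB), AT5G51060 (RBOHC), AT5G47910 (RBOHD), AT1G19230 (RBOHE), AT1G64060 (RBOHF), AT4G25090 (RBOHG), AT5G60010 (RBOHH), AT4G11230 (RBOHI) and AT3G45810 (RBOHJ). All 10 loci were on the array, with 14 of its 43603 probes, and 8 of the 10 genes had a probe that passed the filter on dim probes. On each of the 4 arrays, RNA of Al-treated plants carried the red dye Cy5 and RNA of untreated plants, always of that same line, the green dye Cy3. The lines were the AvSAMS1 TF, a Columbia-0 transformant that expresses an S-adenosyl methionine synthetase gene of the grass Andropogon virginicus, and its parent Col-0, the wild type. Each line had 2 arrays, from pools of plants. The transgene was driven by the constitutive 35S promoter and 1 homozygous line (TF6) was used, so the transgene cannot be told apart from that line. Plants were 3 weeks old, and the Al groups of both lines had 2 d of Al at pH 4.2. The labels give the dose as 300 mM, and the methods as 300 μM. The labels place the untreated plants at day 0 in replicate 1 and at day 2 in replicate 2, while the methods give 2 d with and without Al. By the labels, Al and 2 d of elapsed time thus cannot be told apart in replicate 1 of either line. The ratio of Al-treated to untreated plants is called the Al response below with that limit. The tissue is labelled whole plant, but the labelling step names shoots.

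RBOH proteins sit in the plasma membrane and pass electrons from NADPH in the cytosol to oxygen outside the cell, which yields superoxide and, from it, hydrogen peroxide. Calcium binding and phosphorylation of the N-terminal region switch them on. In Arabidopsis, RBOHD and RBOHF are found throughout the plant and act in defence and stomatal closure. RBOHA, RBOHB, RBOHC, RBOHG and RBOHI are known mainly from roots, where RBOHC drives root hair growth, RBOHE acts in the tapetum of the anther, and RBOHH and RBOHJ act in pollen tubes. These classes were used below as root type, tapetum, ubiquitous and pollen members.

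The arrays differed in quality and in likeness. Between 62.2% and 78.1% of spots were well above background (the scanner software's mark for a measured spot) in Cy3, and between 69.7% and 79.7% in Cy5, and the lowest share in Cy3 was on AvSAMS1 TF replicate 1. Over the 25773 probes measured in both channels of every array, the log2 ratios of the AvSAMS1 TF arrays correlated at r = -0.28, those of the Col-0 arrays at r = 0.48, and those of the replicate 2 arrays, which shared a slide, at r = 0.83. The AvSAMS1 TF replicates therefore ran weakly against each other, and values are given below for each array. The dyes were never exchanged, so every ratio is also open to a dye bias of its probe. Signals are the scanner's background-subtracted, dye-normalised intensities, in arbitrary units. They are set against each other only at 1 probe, and they are not normalised between arrays. The median signal of a channel ran from 154 (Cy3 of AvSAMS1 TF replicate 1) to 518 (Cy5 of AvSAMS1 TF replicate 2).

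In the deposited ratios RBOHA was below 0.5-fold in the AvSAMS1 TF on both arrays, but the mean did not pass the test. Its Cy5 signal was 21.4 and 107.5 in Al-treated AvSAMS1 TF replicates 1 and 2, against Cy3 signals of 185 and 225 in untreated AvSAMS1 TF. It was 149 and 207 in Al-treated Col-0, against 200.2 and 500 in untreated Col-0. The Al-treated AvSAMS1 TF signals thus lay under all other 6, most of all in replicate 1, and on every array the Al-treated plants had less. The log2 ratios were -3.11 and -1.07 in the AvSAMS1 TF, and -0.43 and -1.27 in Col-0, so the lines overlapped. A second probe of the gene gave -2.76 and -1.38 in the AvSAMS1 TF, and 0.00 and -1.29 in Col-0, while the third was not well above background on any array. The mean log2 ratio was -2.09 in the AvSAMS1 TF and -0.85 in Col-0 (n = 2 arrays each). The adjusted p was 0.991 and 0.782 by limma with Benjamini-Hochberg adjustment. Each mean had a limma SE of 0.61, from a spread shared by both lines and moderated across probes. The SD of the 2 arrays was 1.45 in the AvSAMS1 TF and 0.60 in Col-0. The difference between the lines was -1.24 (95% interval -3.62 to 1.14, limma adjusted p 0.999). With normexp background correction and loess, the mean in the AvSAMS1 TF was -1.18. Without AvSAMS1 TF replicate 1 the difference was -0.22, and without Col-0 replicate 1 it was -0.81. RBOHA is one of the repressed genes that the study chose on these arrays, so its direction is no independent evidence.

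RBOHB was the member whose replicates were farthest apart. Its signals were 24.7 and 30.2 in Al-treated AvSAMS1 TF, against 54.8 and 123 in untreated AvSAMS1 TF. In Col-0 they were 156 and 98.4 with Al, against 10.4 (not well above background) and 641 without. Al-treated AvSAMS1 TF plants were thus below untreated ones on both arrays, whereas the Col-0 arrays ran opposite ways. The log2 ratios were -1.15 and -2.03 in the AvSAMS1 TF, and 3.90 and -2.70 in Col-0. The mean difference between the lines was -2.19, with a 95% interval of -8.79 to 4.41. It was -0.41 with normexp and loess and -0.60 with normexp and median centring. The second probe of the gene was well above background on 1 array only, in untreated Col-0 replicate 2.

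RBOHC, the root hair oxidase, had signals of 72.7 and 184 in Al-treated AvSAMS1 TF, against 149 and 231 in untreated AvSAMS1 TF. Its signals were 342 and 200.2 in Al-treated Col-0, against 192 and 652 in untreated Col-0. The log2 ratios were -1.04 and -0.33 in the AvSAMS1 TF, and 0.84 and -1.70 in Col-0, so both AvSAMS1 TF values lay between the Col-0 values. The difference of the means was -0.25 (95% interval -3.01 to 2.51), and -0.05 with normexp and loess.

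RBOHG and RBOHI, for which mainly root expression is known, were dim. RBOHG had 5.14 and 6.19 in Al-treated AvSAMS1 TF, neither well above background, against 13.2 (not well above background) and 62.4 in untreated AvSAMS1 TF. In Col-0 it had 13.1 (not well above background) and 21.6 with Al, against 8.03 (not well above background) and 154 without. RBOHG was therefore measured in untreated plants of both lines in replicate 2 only. RBOHI had 19.5 and 11.1 in Al-treated AvSAMS1 TF, neither well above background, against 18.3 (not well above background) and 40.9 in untreated AvSAMS1 TF. In Col-0 it had 21.1 (not well above background) and 18.5 with Al, against 31.9 and 130 without. Its highest signal again belonged to untreated Col-0 replicate 2. Because neither Al-treated AvSAMS1 TF sample was measured, only rough bounds can be given there. For the unmeasured side, each array took the higher of the gene's own level and the dimmest level well above background in that channel. These are normalised log2 values. By the means of the replicates, the bounds put RBOHG 1.37-fold and RBOHI 1.12-fold lower in Al-treated than in untreated AvSAMS1 TF. The untreated mean includes replicate 1, where neither gene was well above background, so these are not strict lower bounds. In the AvSAMS1 TF both genes were measured in untreated replicate 2 only, so a lower Al-treated value was partly set by the filter. For RBOHI the lower mean came from replicate 2, since in replicate 1 its Al-treated signal was not the lower one. The deposited log2 ratios were -1.36 and -3.33 for RBOHG in the AvSAMS1 TF, and 0.71 and -2.83 in Col-0. For RBOHI they were 0.09 and -1.88 in the AvSAMS1 TF, and -0.60 and -2.82 in Col-0.

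**Figure D1:**
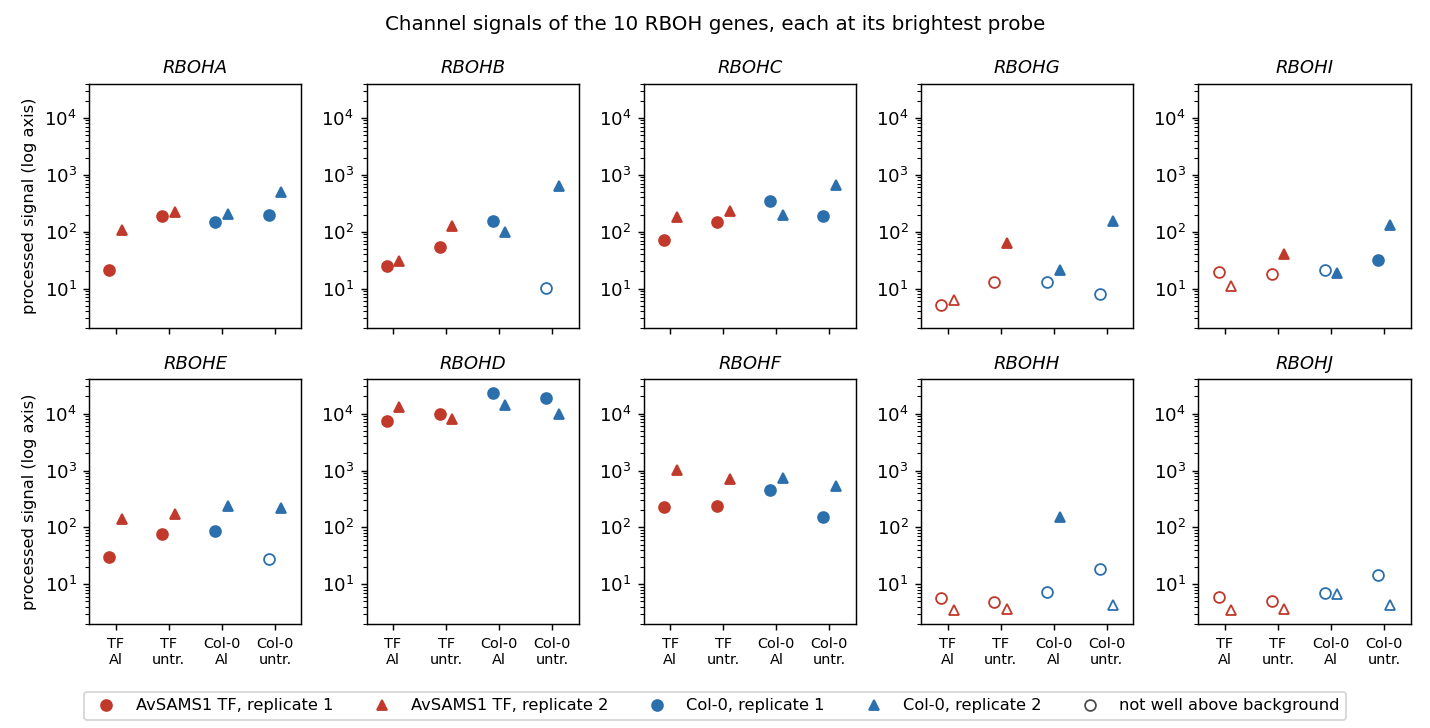
Processed signal (log axis, arbitrary units) of each RBOH gene at its brightest probe in Al-treated and untreated plants of both lines, with 1 point per array channel, circles for replicate 1, triangles for replicate 2 and open symbols where the spot was not well above background. RBOHA lies lowest in Al-treated AvSAMS1 TF, RBOHG and RBOHI lie highest in untreated Col-0 replicate 2, and RBOHH is measured in 1 sample only.

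RBOHE, the tapetum oxidase, was the one member with both AvSAMS1 TF ratios below 1 and both Col-0 ratios above 1. Its signals were 30.1 and 140 in Al-treated AvSAMS1 TF, against 75.2 and 173 in untreated AvSAMS1 TF. They were 85.2 and 242 in Al-treated Col-0, against 28.4 (not well above background) and 218 in untreated Col-0. These signals are not normalised between arrays, so they do not give the spread between replicates. As normalised log2 levels, Al-treated AvSAMS1 TF had 7.03 and 7.18, against 7.51 and 7.36 in untreated AvSAMS1 TF. The AvSAMS1 TF replicates thus differed by less than Al-treated and untreated plants of its replicate 2. In Col-0 the replicates differed by more than that, with 7.35 and 7.65 in Al-treated plants, against 7.55 in untreated replicate 2. The log2 ratios were -1.32 and -0.30 in the AvSAMS1 TF, and 1.58 and 0.15 in Col-0. The difference between the lines was -1.68 (limma SE 0.72, 95% interval -3.66 to 0.31, limma adjusted p 0.999), and with normexp and loess it was -0.65. Of the 21204 loci tested, 1.7% had this pattern of signs, and 11.3% had both AvSAMS1 TF ratios below both Col-0 ratios, which among the 8 measured members was again RBOHE alone.

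RBOHD, the oxidase of the defence burst, had 7307 and 13265 in Al-treated AvSAMS1 TF, against 9718 and 8167 in untreated AvSAMS1 TF. It had 23030 and 14327 in Al-treated Col-0, against 18800 and 9935 in untreated Col-0. Al-treated plants had more on 3 of the 4 arrays and less in AvSAMS1 TF replicate 1. The log2 ratios were -0.41 and 0.70 in the AvSAMS1 TF, and 0.29 and 0.53 in Col-0, and the second probe gave -0.45, 0.65, 0.22 and 0.50 in the same order. The difference between the lines was -0.27 (95% interval -1.75 to 1.21), which leaves room for changes of over 2-fold in either direction. RBOHF, its partner in abscisic acid signalling of guard cells, had 231 and 1006 in Al-treated AvSAMS1 TF, against 233 and 695 in untreated AvSAMS1 TF. It had 450 and 748 in Al-treated Col-0, against 152 and 528 in untreated Col-0. The ratio was above 1 on both Col-0 arrays. Its log2 ratios were -0.02 and 0.53 in the AvSAMS1 TF, and 1.57 and 0.50 in Col-0, with a Col-0 mean of 1.04 (limma SE 0.39, limma adjusted p 0.655).

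The pollen members gave almost no signal. RBOHJ was not well above background in any channel, at 3.57 to 14.4. RBOHH was measured only in Al-treated Col-0 replicate 2, at 152 (raw spot median 169 over a local background of 71.5), against 4.25 in its untreated partner. In the other 7 channels RBOHH had 3.54 to 18.6. By the same rough bound on the means of the replicates, RBOHH was 1.18-fold higher in Al-treated than in untreated Col-0, but this came from replicate 2 alone. In Col-0 replicate 1 the Al-treated signal was the lower one (7.22 against 18.6, neither well above background). No test was made because the probe failed the filter. Of 12 pollen genes listed as markers, 5 were well above background in Cy5 of AvSAMS1 TF replicate 2 and 5 in that of Col-0 replicate 2, against 1 and 2 in replicate 1. Their summed signal was 115 and 353 in Al-treated AvSAMS1 TF, against 234 and 170 in untreated AvSAMS1 TF. In Col-0 it was 207 and 405 with Al, against 281 and 228 without. Among the 12, LLG2 was well above background in every channel, and MYB101, ANX1 and ANX2 were so in Al-treated replicate 2 of both lines. AGL66, AGL104 and DUO1, which specify the male germ line and pollen maturation, were not measured on any array. Whether pollen in the sample bears on the RBOHH signal was not tested.

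No member passed an adjusted p of 0.05 in any comparison. Of 34723 probes, limma called 0% for the Al response in the AvSAMS1 TF, 0% for that in Col-0 and 0% for the difference between the lines, with 1207, 2615 and 334 probes at an unadjusted p under 0.05. An unmoderated test of each probe on the same ratios gave 1081, 2323 and 513 probes at an unadjusted p under 0.05, and 0, 1 and 0 after Benjamini-Hochberg adjustment. The lowest adjusted p of any member probe was 0.991 for the Al response in the AvSAMS1 TF, 0.655 for that in Col-0 and 0.999 for the difference. The methods describe different biological pools of plants. The 2 arrays of a line also differ in the day of the untreated plants, the slide and the software version. The p-values rest on the spread between such arrays, not between pools alone. For limma that spread is pooled over both lines and moderated across probes.

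In the deposited ratios, several members were below 0.5-fold on 3 of the 4 arrays. On AvSAMS1 TF replicate 1 these were 4 of the 6 members measured in both channels (RBOHA, RBOHB, RBOHC and RBOHE), on an array where 11% of all tested loci were, and on AvSAMS1 TF replicate 2 they were RBOHA and RBOHB of 6, against 6.48% of loci. On Col-0 replicate 1 it was 0 of 4, against 9.73% of loci, and on Col-0 replicate 2 it was all 5 root type members of 8, against 7.68%. These shares are over all tested loci, not only those measured in both channels. RBOHG and RBOHI passed the filter mainly through the untreated channel, where they were brighter, so a low ratio was partly set by the filter. The 5 on Col-0 replicate 2 include them, and without them were RBOHA, RBOHB and RBOHC. Counts over 2 arrays are given without RBOHG and RBOHI first. Of the 6 members measured in both channels of both AvSAMS1 TF arrays, RBOHA and RBOHB were below 0.5-fold on both, against 1.08% of loci measured likewise. With RBOHG it was 3 of 8, against 1.44% of all tested loci. This count did not hold under the other background correction: it was 0 of 8 with normexp and loess (0.627% of loci) and 0 of 8 with normexp and median centring (0.429%). No member was below 0.5-fold on both Col-0 arrays, against 2.44% of loci. In replicate 2, RBOHA and RBOHB were below 0.5-fold in both lines, of 6 members measured in both channels of both arrays, against 3.21% of loci measured likewise, and with RBOHG and RBOHI it was 4 of 8, against 4.12% of all tested loci. These are counts of genes on arrays and not tests.

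**Figure D2:**
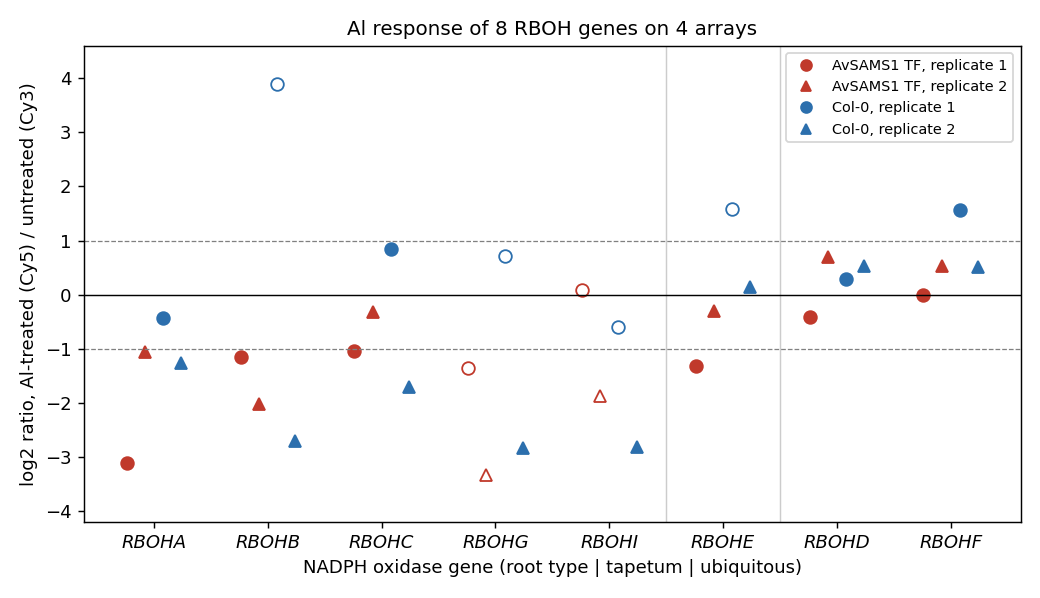
Log2 ratio of Al-treated over untreated signal for the 8 measured RBOH genes, with 1 point per array and open symbols where either channel was not well above background and dashed lines mark 2-fold and 0.5-fold. The root type members of Col-0 replicate 2 lie between -1.27 and -2.83, those of Col-0 replicate 1 between -0.60 and 3.90, and RBOHD and RBOHF lie at -0.41 or higher on every array.

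The classes of members are set side by side here as a description, with no test between them. The root type median (log2 ratio, 5 genes) was -1.15 in replicate 1 and -1.88 in replicate 2 of the AvSAMS1 TF, and 0.71 and -2.70 in those of Col-0. The 0.71 is the ratio of RBOHG, with neither channel well above background. The -1.88 is that of RBOHI, whose Al-treated channel was not well above background. For RBOHD and RBOHF the median was -0.21 and 0.62 in the AvSAMS1 TF, and 0.93 and 0.52 in Col-0. The root type median was thus below the ubiquitous one on all 4 arrays, by the least on Col-0 replicate 1. Over all loci the array medians lay between -0.02 and 0.05. Neither RBOHD nor RBOHF was below 0.5-fold on any array, while RBOHE, the tapetum member, was on AvSAMS1 TF replicate 1. On Col-0 replicate 1 no root type member was. Over the root type members measured in both channels of an array, the medians were -1.15 and -1.07 in the AvSAMS1 TF (3 genes each), and 0.21 (2 genes) and -2.70 (5 genes) in Col-0.

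Root marker genes were low on replicate 2 of both lines too. Of 16 root genes listed as markers (endodermis, root hair and water channel genes), 15 passed the filter. In Cy5, 5 and 11 of the 16 were well above background in Al-treated AvSAMS1 TF, against 8 and 15 in Cy3 of untreated AvSAMS1 TF. In Col-0 it was 6 and 11 with Al, against 6 and 16 without. Over the markers measured in both channels of an array, 0 of 4 and 5 of 11 were below 0.5-fold in the AvSAMS1 TF, with median log2 ratios of 0.57 and -0.58. In Col-0 it was 0 of 5 and 10 of 11, with medians of 0.11 and -2.52. Over all 15 the medians were -0.05 and -1.33 in the AvSAMS1 TF, and 0.00 and -2.87 in Col-0. EXPA7, EXPA18, RSL4 and MRH6, which act in root hairs, were never well above background in Al-treated plants and passed the filter through the untreated channel alone, so that a low ratio was set by the filter. The summed signal of the 15 was 1010 and 2338 in Al-treated AvSAMS1 TF, against 641 and 4306 in untreated AvSAMS1 TF. In Col-0 the sum was 2517 and 3742 with Al, against 1236 and 15580 without. Untreated Col-0 replicate 2, where all 5 root type members had their highest signal, also had the highest root marker signal. These signals are not normalised between arrays: the median Cy3 signal was 247 and 511 in Col-0, and 154 and 517 in the AvSAMS1 TF. As normalised log2 levels, RBOHA was highest in untreated AvSAMS1 TF replicate 1 (8.46 against 8.38) and RBOHC in Al-treated Col-0 replicate 1 (8.72 against 8.42). RBOHB, RBOHG, RBOHI and the root marker median (7.82) were highest in untreated Col-0 replicate 2. On replicate 1, where few root markers were measured, 3 of the 15 in the AvSAMS1 TF and 2 in Col-0 had a deposited log2 ratio of exactly 0. Leaf photosynthesis genes, 13 of 13 measured in every channel, had medians of 0.93 and 0.07 in the AvSAMS1 TF, and -1.19 and -0.16 in Col-0. The part of the root and leaf content of the samples in the RBOH ratios was not tested, and fewer root cells in a sample and less RBOH RNA per cell cannot be told apart in whole plants. The untreated plants' day also differs between the replicates, and day and replicate cannot be told apart.

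**Figure D3:**
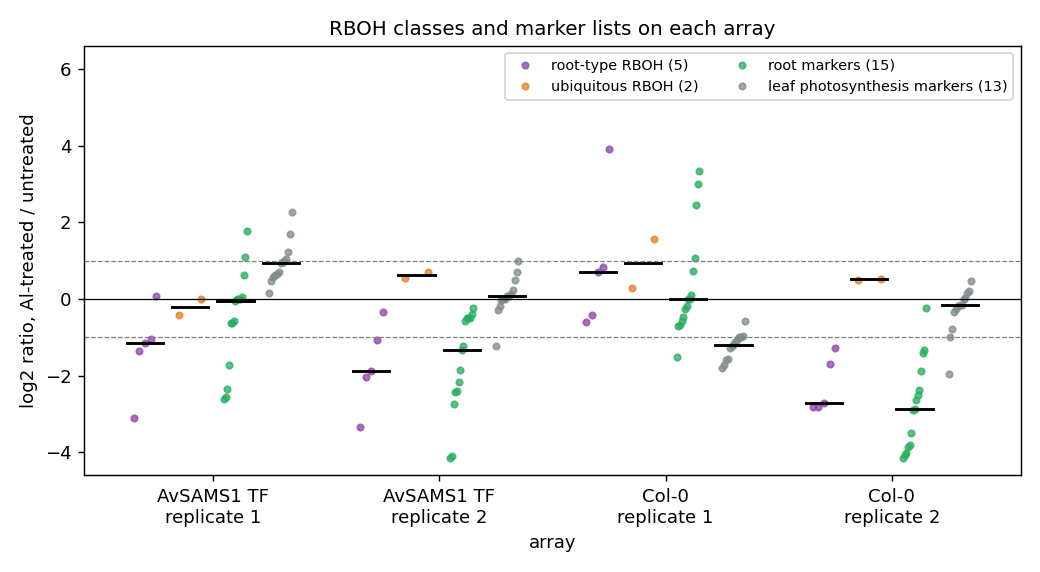
Log2 ratio of Al-treated over untreated signal on each array for the root type and ubiquitous RBOH genes, 15 root markers and 13 leaf photosynthesis genes, where points are genes and black bars medians. On Col-0 replicate 2 the root type members (median -2.70) and root markers (-2.87) lie low together, and on the replicate 1 arrays only 4 (AvSAMS1 TF) and 5 (Col-0) of the 15 root markers were measured in both channels.

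Between the lines, the members lay apart in replicate 1, and for 5 of 8 the direction turned in replicate 2. In replicate 1, whose arrays were on a slide each, the AvSAMS1 TF ratio was below the Col-0 ratio for 7 of 8 members, all but RBOHI, against 48.4% of loci. For RBOHA, RBOHB, RBOHC, RBOHE, RBOHF and RBOHG it was lower by at least 2-fold, against 15.8% of all tested loci. Of these, only RBOHA, RBOHC and RBOHF were well above background in both channels of both replicate 1 arrays. RBOHG was so in no channel there, and RBOHB and RBOHE were not in untreated Col-0, so their differences are uncertain. The log2 differences (AvSAMS1 TF minus Col-0) were -2.69 for RBOHA, -5.05 for RBOHB, -1.87 for RBOHC, -2.07 for RBOHG, -2.91 for RBOHE and -1.59 for RBOHF. In replicate 2, with both arrays on 1 slide, they were 0.21 for RBOHA, 0.68 for RBOHB, 1.37 for RBOHC, -0.50 for RBOHG, -0.45 for RBOHE and 0.03 for RBOHF. The sign turned for RBOHA, RBOHB, RBOHC and RBOHF, and for RBOHD (-0.70 in replicate 1 and 0.17 in replicate 2), while RBOHI had 0.68 and 0.93. Of all loci, 24.1% were lower in the AvSAMS1 TF in replicate 1 and higher in replicate 2, as these 5 members were. RBOHE and RBOHG were lower in the AvSAMS1 TF in both replicates, a pattern of 24.3% of loci.

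**Figure D4:**
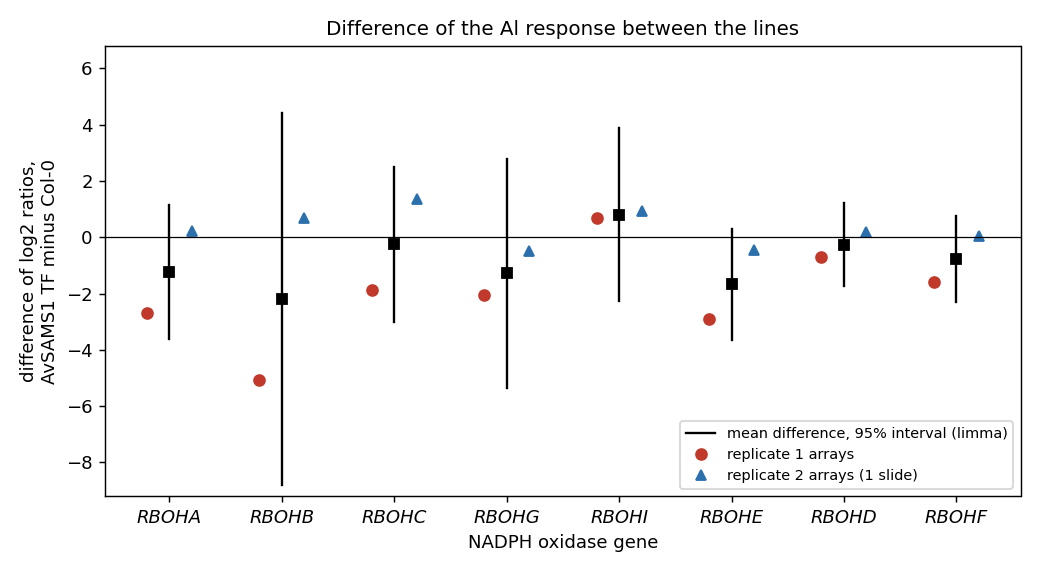
Difference of the log2 Al response, AvSAMS1 TF minus Col-0, for 8 RBOH genes, where black squares are the mean of 2 replicates with the 95% interval of limma, red circles the replicate 1 arrays and blue triangles the replicate 2 arrays. Every interval spans 0, and RBOHA has -2.69 in replicate 1 and 0.21 in replicate 2.

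Levels were also compared between the lines within a dye, that is, among untreated plants and among Al-treated plants. In untreated plants, limma called 0.207% of 34723 probes (72) between AvSAMS1 TF and Col-0, and 401 probes with the replicate number as a block. In Al-treated plants it called 0.654% (227). No RBOH probe was among them, with lowest adjusted p of 0.768 and 0.482. The count was 0 in both comparisons with any 1 array left out. RBOHA had normalised log2 levels of 6.78 and 7.01 in Al-treated AvSAMS1 TF, against 7.97 and 7.53 in Al-treated Col-0. These groups did not overlap, as was so, with the AvSAMS1 TF lower, for RBOHD, RBOHE and RBOHG too (4 of 8 members, against 19.4% of loci). Among the Al-treated samples RBOHG was well above background only in Col-0 replicate 2, so its place in this count rests on levels near background. For RBOHA the difference was -0.85 (95% interval -1.58 to -0.13, limma adjusted p 0.482). At its second probe the difference was -0.65, with an interval that spans 0 (95% interval -1.53 to 0.24, limma adjusted p 0.737). In untreated plants RBOHA had 8.46 and 7.69 in the AvSAMS1 TF, against 8.22 and 8.38 in Col-0, a difference of -0.22 (95% interval -1.20 to 0.76). RBOHD had 12.95 and 12.84 in Al-treated AvSAMS1 TF, against 14.21 and 12.99 in Al-treated Col-0, a difference of -0.71 (95% interval -1.91 to 0.50). RBOHF differed by 0.59 in untreated plants (95% interval -0.27 to 1.46) and by 0.10 in Al-treated plants (-0.59 to 0.80).

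Of 20 listed regulators of the oxidases (the kinases BIK1, CPK5 and OST1, the calcium sensors CBL1 and CBL9, the receptors FLS2 and FER, and others), all 20 passed the filter. None was 2-fold up (0.957% of all loci in the AvSAMS1 TF and 3.69% in Col-0) or down (1.44% and 2.44%) on both arrays of a line. None passed the adjusted p. Their median mean log2 ratio was 0.03 in the AvSAMS1 TF and 0.00 in Col-0, beside 0.06 and 0.03 over all loci. CBL1, a calcium sensor that works with CIPK kinases, shows the spread, with log2 ratios of -0.63 and 2.15 in the AvSAMS1 TF, and 0.28 and 2.39 in Col-0.

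Of 12 listed genes that remove superoxide or hydrogen peroxide, 3 were at least 2-fold changed on both Col-0 arrays and none on both AvSAMS1 TF arrays. CAT3, a catalase, had log2 ratios of 1.06 and 0.88 in the AvSAMS1 TF, and 1.54 and 1.51 in Col-0. CSD1, the cytosolic copper/zinc superoxide dismutase, had -0.68 and 0.99 in the AvSAMS1 TF, and 1.41 and 1.07 in Col-0. CAT2, the main leaf catalase of photorespiration, had -0.28 and -1.23 in the AvSAMS1 TF, and -1.32 and -1.31 in Col-0. CAT3 was thus above 1 on all 4 arrays and CAT2 below 1 on all 4. None passed the test (limma adjusted p in Col-0 of 0.655 for CAT3, 0.657 for CSD1 and 0.655 for CAT2). Over all loci, 0.957% were above 2-fold on both AvSAMS1 TF arrays and 3.69% on both Col-0 arrays, while 1.44% and 2.44% were below 0.5-fold. FSD1, an iron superoxide dismutase and the next gene after RBOHG on the chromosome, had 0.33 and 2.59 in the AvSAMS1 TF, and -0.82 and 2.38 in Col-0, so in replicate 2 of both lines it lay above 1 while RBOHG lay below 0.5-fold.

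The loci whose 4 log2 ratios lay closest to those of a member were sought among 16675 loci measured in both channels of every array, by Euclidean distance. Nearest to RBOHA was MDHAR (AT3G09940), a monodehydroascorbate reductase, at a distance of 0.44 with log2 ratios of -2.81 and -1.26 in the AvSAMS1 TF, and -0.52 and -1.51 in Col-0. AT2G35070 (0.57) and AT1G63580 (0.61) followed. Nearest to RBOHC were MSL9 (AT5G19520, 0.71), a mechanosensitive channel of root cells, AT4G01670 (0.82) and AT2G45830 (0.91). Nearest to RBOHD were AT2G40730 (0.06), AT3G43300 (0.11) and AT5G08160 (0.12). The likeness is over 4 arrays only.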

How the data were processed

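Total RNA of Al-treated and untreated plants was hybridised on 4 2-colour Agilent 4x44K arrays. The members and gene lists were chosen with earlier results of these data known. The authors extracted the deposited intensity signals with Agilent Feature Extraction (versions 11.0.1.1 for replicate 1 and 10.7.1.1 for replicate 2 in the file headers, 10.7.3.1 in the labels), which subtracts background and normalises the dyes. Per the file headers, the deposited log10 ratio is Cy5 over Cy3. The deposited p-value of each log ratio is the authors' own test and was not used. The deposited series table holds log2 values that, array by array, follow the same ratios, and was an alternative. RNA kits differ between labels and methods.

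Log10 ratios were turned to log2. Control and outlier spots were left out and spots of a probe averaged. Probes were named through the TAIR10.1 gene table (34447 probes with a locus, 38 with conflicting loci left out). Probes well above background in 1 channel on at least 2 arrays were tested (34723, and 19 more with an outlier spot were left out), with limma 3.58.1 (R 4.3.3) and Benjamini-Hochberg adjustment over all of them, with 2 residual degrees of freedom. Loci were represented by the probe with the highest mean signal. Levels within a dye came from normexp (offset 50), loess and Aquantile. The fits were tested on simulated data. The precision is limited by 2 arrays a line. Named genes were all 10 members, listed regulators and scavengers changed 2-fold on both arrays of a line or past the adjusted p, and the 3 loci nearest to RBOHA, RBOHC and RBOHD; CBL1 and FSD1 were named after their values were seen. Alternatives were other background correction and normalisation, the series table, no filter, a strict filter, an intensity trend, an unmoderated t-test, a replicate block and each array left out. The labels number the experiments, and same-numbered arrays of the lines deviated together from their line means (r = 0.47 over 34723 probes, 2 pairs). With 2 arrays a line these pairs mirror each other, so they are not independent. The replicate number also goes with the day of the untreated plants and the software version.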

Additional observations from a re-analysis of the deposited data

Results flagged for a closer look

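The RBOHE ratio was below 1 on both AvSAMS1 TF arrays and above 1 on both Col-0 arrays. The mean log2 ratio was -0.81 in the AvSAMS1 TF (limma SE 0.51, limma adjusted p 0.991). In Col-0 it was 0.86 (limma SE 0.51, limma adjusted p 0.733). Neither mean passed the test, so a response of RBOHE in either line was not shown. With normexp and loess the means were -0.33 in the AvSAMS1 TF and 0.32 in Col-0. The log2 ratios were -1.32 and -0.30 in the AvSAMS1 TF, and 1.58 and 0.15 in Col-0, and the difference was -1.68. The difference itself was tested with limma and did not pass (adjusted p 0.999, with 0.887 for the replicate number as a block and a lowest value over the alternatives of 0.326, without AvSAMS1 TF replicate 2). It was -0.96 without Col-0 replicate 1, where the untreated spot was not well above background.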

How the results depend on the processing

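Of 396 member values under alternative settings, 28 changed sign and 0 passed the adjusted p. Only 4 of the changes came with all arrays kept. RBOHB in Col-0 was -0.27 with normexp and loess and -0.24 with median centring, and the untreated difference between AvSAMS1 TF and Col-0 under quantile-normalised Feature Extraction signals was 0.56 for RBOHB and 0.29 for RBOHG. The other sign changes came with 1 array left out, where the log2 values ranged as follows. In the AvSAMS1 TF they ran from -0.41 to 0.70 for RBOHD, -0.015 to 0.53 for RBOHF and -1.88 to 0.087 for RBOHI. In Col-0 they ran from -2.70 to 3.90 for RBOHB, -1.70 to 0.84 for RBOHC and -2.83 to 0.71 for RBOHG. The difference of the Al response ran from -5.49 to 1.12 for RBOHB, -1.52 to 1.02 for RBOHC, -0.82 to 0.29 for RBOHD, -3.05 to 0.48 for RBOHG and -0.30 to 1.92 for RBOHI. The untreated difference ran from -0.61 to 0.16 for RBOHA, -1.23 to 0.54 for RBOHB, -1.25 to 0.30 for RBOHD, -0.12 to 0.63 for RBOHE and -0.55 to 0.46 for RBOHG. The Al-treated difference ran from -1.21 to 0.15 for RBOHC, -0.11 to 0.31 for RBOHF and -0.24 to 0.40 for RBOHI. The count of probes called between untreated lines (72) was 0 under the strict filter, 401 with the replicate block and 133 with quantile-normalised signals, and that between Al-treated lines (227) was 0 under the strict filter and 345 with quantile-normalised signals. Both counts were 0 whichever array was left out (lowest 0, highest 0). For the Al response in Col-0 an unmoderated t-test called 1 probe. Counting over loci measured in both channels was an alternative chosen after seeing the data. The block changed no call of a member, and the cause of these changes was not tested. The slide as a random block was not run, since no correlation could be estimated. Dim members, RBOHG and RBOHI above all, are limited by signal over background.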
